A study of Mus musculus with 2 samples.

Results

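Drd2 Adora2a striatal-type projection neurons are the nuclei that carried RNA of the receptor pair of indirect-pathway spiny projection neurons (SPNs) within the single-nucleus RNA-sequencing of the mouse hypothalamic preoptic area (POA). A nucleus was a member when it had at least 2 unique molecular identifiers (UMIs, 1 for each captured RNA molecule) of Drd2 and Adora2a together, at least 1 UMI of Rarb, and none of Drd1, Chat or Slc5a7. These members were selected on measured values, so the levels of the genes in the rule describe the choice and are not results. Of 20952 nuclei with 200 to 7500 genes, at most 5% mitochondrial UMIs and at least 2000 UMIs, 879 met the rule. There were 702 members among 11040 nuclei of the sham library and 177 among 9912 nuclei of the ultrasound library.

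The study asked which POA neurons respond when transcranial ultrasound aimed at this region brings on a hypothermic, hypometabolic state. Wild-type mice of 6 to 9 weeks received ultrasound (US+) or a sham treatment (US-), and the POA was dissected about 1 h later. Tissue of 4 mice was pooled in each group before nuclei were sorted on NeuN and DAPI, and each group was then a single library. No difference between US+ and US- therefore has a replicate check, no test across animals could be made, and treatment, dissection, pooling and library preparation cannot be told apart. Levels are given in CPM, the UMIs of a gene per 1000000 UMIs, after the UMIs of all nuclei of a group were summed. The intervals after values are exact 95% intervals that cover counting error only.

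SPNs are the GABAergic output neurons of the striatum. They come in a direct-pathway type, which carries the D1 dopamine receptor and the peptide precursor Tac1, and an indirect-pathway type, which carries the D2 dopamine receptor, the adenosine receptor encoded by Adora2a and the enkephalin precursor Penk. Dopamine at D2 lowers cAMP through an inhibitory G protein, whereas adenosine at the Adora2a receptor raises it through the olfactory-type G protein that striatal neurons use. The striatum and the nucleus accumbens lie close to the POA and are not part of it. The labels name the tissue as POA and the cells as neurons and do not name striatal cells.

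The library totals were 101948623 UMIs over 11725 barcodes in US- and 95029281 UMIs over 12075 barcodes in US+. The 2 libraries shared 29 barcodes, and none was a member. Members summed to 7559607 UMIs in US- and 2342610 in US+, so that 3 UMIs stand for 0.397 CPM in US- and 1.28 CPM in US+, and low levels carry wide intervals in US+. The median depth of a member was 9105 UMIs in US- and 11753 in US+, against 7558 and 7328 in all other nuclei. Xist, expressed from the inactive X of females, had a UMI in 99.3% of US- members, whereas the Y-linked Kdm5d and Eif2s3y were at 0 in both libraries, the Y-linked Uty had 2 UMIs in US- and 1 in US+, and the Y-linked Ddx3y had 13 and 3.

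Members made up 6.36% (5.91 to 6.83) of the nuclei in US- and 1.79% (1.53 to 2.07) in US+. The counting intervals of these shares did not overlap. Nuclei of the matching direct-pathway type, chosen by at least 2 UMIs of Drd1, at least 1 of Rarb and none of Drd2, Adora2a, Chat or Slc5a7, made up 3.92% (3.57 to 4.30) in US- and 1.32% (1.11 to 1.57) in US+. These Drd1 striatal-type nuclei were thus also fewer in US+, and there were 1.62 members for each of them in US- and 1.35 in US+. Cholinergic marker genes, which mark a striatal interneuron as well as basal forebrain cells, summed to 38.7 CPM in all other nuclei of US- and 13.0 CPM in those of US+. The amount of striatum that each dissection took in and the treatment cannot be told apart.

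The genes that name the cells were present as the rule fixes them. Drd2 (chr9:49340627-49408177 on GRCm38, plus strand) was at 335 CPM in US- members and 219 CPM in US+ members, and Adora2a (chr10:75316877-75334784, plus strand) at 121 and 76.8 CPM. Rarb (chr14:16430839-16819156, minus strand), a retinoic acid receptor of striatal neurons, was at 1382 and 1089 CPM. Penk (chr4:4133531-4138819, minus strand) is not in the rule, and 83.2% of US- members and 85.3% of US+ members had a UMI of it, against 20.9% and 17.997% of all other nuclei. In US-, 471 members had both receptors, 208 had Drd2 alone and 23 had Adora2a alone, and in US+ these numbers were 101, 69 and 7.

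At the receptor threshold, nuclei just outside had less Penk than those just inside. The 279 US- nuclei with 1 receptor UMI that met the rest of the rule had Penk at 115 CPM, and the 190 members just inside, with 2 receptor UMIs, had it at 253 CPM. In US+ the 157 nuclei just outside had Penk at 311 CPM and the 61 just inside at 425 CPM. At the Rarb threshold, the 21 US- members and 20 US+ members with a single Rarb UMI had Penk at 81.5 and 100.3 CPM. The median of the summed SPN genes described next was 2198 CPM in these US- nuclei and 2182 CPM in these US+ nuclei. The 65 US- and 11 US+ nuclei left out by a Drd1 UMI had medians of 10731 and 7390 CPM of these genes. The 21 US- and 4 US+ nuclei left out by Chat or Slc5a7 had 10873 and 13103 CPM, with Penk at 133 and 1243 CPM.

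The label was checked with 24 genes that both SPN types share, among them the transcription factors Foxp1, Meis2 and Bcl11b and the signalling genes Gnal, Adcy5, Pde10a and Rgs9. Summed in each nucleus, these genes had a median of 12180 CPM in US- members and 10858 CPM in US+ members, against 2495 and 2038 CPM in all other nuclei. At or above 8000 CPM lay 576 of the 702 US- members (82.1%) and 120 of the 177 US+ members (67.8%). Among all other nuclei, 14.8% in US- and 4.77% in US+ lay there. The label therefore held for most members, and the US+ members were a more mixed set than the US- members.

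**Figure D1:**
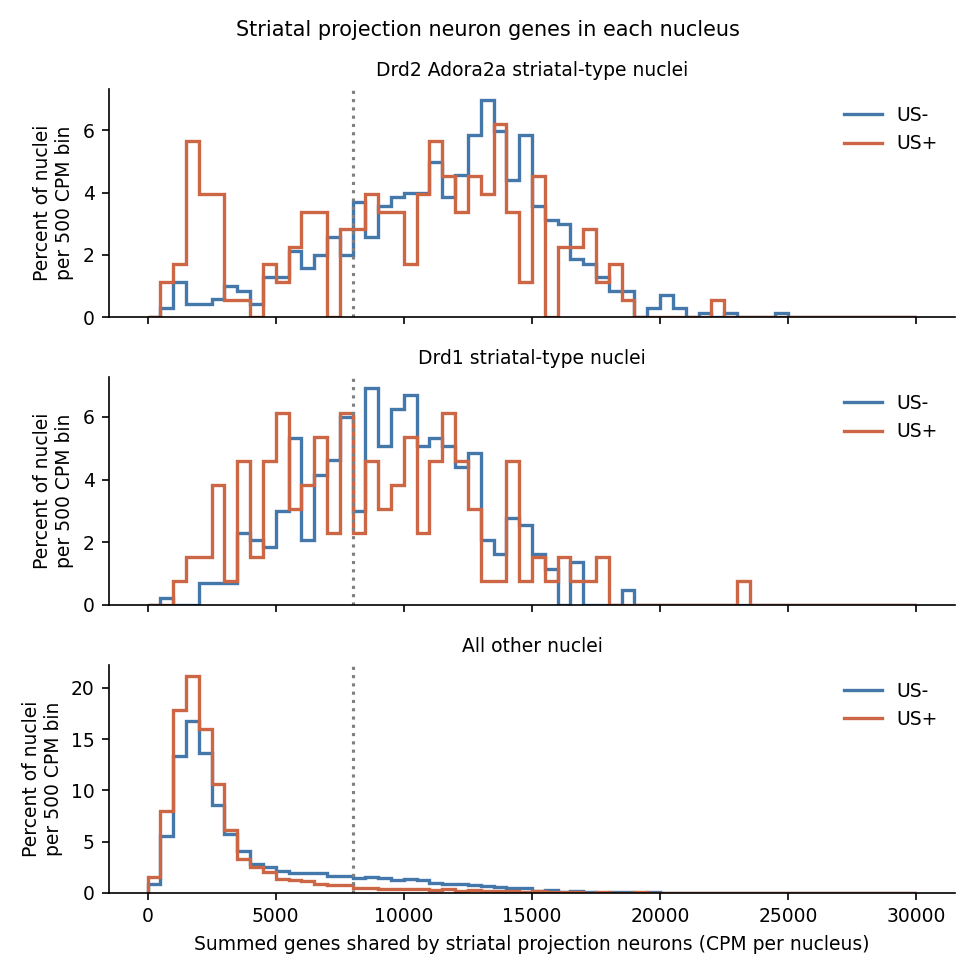
Percent of nuclei (vertical axis, per 500 CPM bin) against the summed level of 24 genes shared by SPNs in each nucleus (horizontal axis, CPM), for the members, the Drd1 striatal-type nuclei and all other nuclei. Blue lines are US-, orange lines are US+, and the dotted line is at 8000 CPM. At or above 8000 CPM lie 576 of 702 US- members and 120 of 177 US+ members, and under 4000 CPM lie 33 and 31.

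The members were not uniform. Under 4000 CPM of the shared SPN genes lay 33 US- members (4.70%) and 31 US+ members (17.5%). Penk was at 71.3 CPM (50.2 to 98.3) in these nuclei of US- and 25.0 CPM (12.5 to 44.7) in those of US+, where all other nuclei had 38.1 and 42.5 CPM. Lingo2, a synaptic adhesion gene, was at 3489 and 3738 CPM, against 3309 and 3519 CPM in all other nuclei. Gad2, which makes GABA, was at 222 and 198 CPM, against 240.0 and 221 CPM. In these genes the low members were thus closer to all other nuclei than to the rest of the members. Not every gene did so. Esr1 was at 36.6 and 36.4 CPM in the low members, against 69.3 and 104.8 CPM in all other nuclei. All members had it at 22.4 and 28.6 CPM, the closer values. Slc17a6, a glutamatergic marker, was at 5.78 CPM in US- low members, 5.82 CPM in all members and 24.02 CPM in all other nuclei. In US+ its level was 22.7 CPM, between 11.95 CPM in all members and 33.3 CPM in all other nuclei. The low members were given no cell type name.

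Several of the genes that varied most between members differed along the same split. After each nucleus was thinned to 2000 UMIs, the ratio of variance to mean had a median of 1.06 in US- and 1.07 in US+ over 3391 genes, and Lingo2 reached 5.41 and 6.09. Members at or above 8000 CPM of shared SPN genes had Lingo2 at 277 and 629 CPM in the sham and ultrasound libraries, and the members below that level at 2363 and 2834 CPM. The synaptic adhesion gene Il1rapl2, the growth factor gene Nrg3, the glycosyltransferase family gene Galntl6 and Adarb2, an RNA-editing family gene, showed the same order. Adarb2 was at 119 and 145 CPM above the level, and at 1031 and 886 CPM below it. Phactr1, a regulator of actin and phosphatase 1, had the opposite order, at 10132 and 10288 CPM above and 3295 and 3109 CPM below. Malat1, a nuclear non-coding RNA, had the highest ratio of variance to mean, 22.5 and 22.6, and differed little along the split, at 68848 and 64106 CPM above the level and 59228 and 55242 CPM below it. Kcnip4, a potassium channel subunit gene, also ranked high, at 5.95 and 5.15, with 8621 and 9748 CPM above and 8651 and 7440 CPM below. Cntnap2 and mt-Atp6 completed the 10 most variable. Esr1, the oestrogen receptor of many POA neurons, was at 15.02 and 9.93 CPM above the level and at 45.3 and 56.8 CPM below it. Members below the level were also the deeper nuclei, with a median of 13088 UMIs in US- and 15003 in US+, against 8580 and 9950 above it.

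Against the Drd1 striatal-type nuclei, members carried more of the genes known for the indirect pathway. Past 1.5-fold in both libraries, 213 of 13169 genes (1.62%) were higher in members and 214 (1.63%) were lower, with the genes of the rule left out. All 6 measured genes of the indirect-pathway list were higher, with a median ratio of 8.42 in US- and 4.10 in US+. These nuclei were chosen on the opposite receptors, so the values describe both groups and are no test of them.

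Penk was at 284 CPM (272 to 296) in US- members and 33.7 CPM in US- Drd1 nuclei, a ratio of 8.42 (7.19 to 9.91). In US+ the levels were 475 CPM (448 to 504) and 95.1 CPM, a ratio of 4.99 (4.23 to 5.92). Upb1, a pyrimidine breakdown enzyme, was 32.6 times higher in US- and 63.6 times in US+. Gpr6, an orphan receptor of indirect-pathway neurons, was at 17.5 CPM in US- members and 7.26 CPM in US+ members, against 1.61 and 1.17 CPM in Drd1 nuclei. Sp9, a transcription factor needed for indirect-pathway neurons to form, was higher by 5.67 and 3.41 times.

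The adenosine side of these cells stood out in the same comparison. Adk (chr14:21052574-21448569, plus strand), the kinase that clears adenosine by phosphorylation, was at 396 and 368 CPM in members and at 77.7 and 82.9 CPM in Drd1 nuclei, ratios of 5.10 and 4.44. Nt5e (chr9:88327197-88372092, plus strand), the ectoenzyme that makes adenosine from AMP, was 2.85 times higher in US- and 3.47 times in US+. Drd3, the D3 dopamine receptor, was lower in members, with ratios of 0.502 and 0.603. Of the 5 measured genes of the dopamine and adenosine list outside the rule, Adk and Nt5e were higher past 1.5-fold in both libraries and Drd3 was lower.

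Receptors for other transmitters also differed between the 2 striatal types. Of 23 measured receptor genes, 4 were higher in members past 1.5-fold in both libraries and 1 was lower. Oprd1, the delta opioid receptor that enkephalin activates, was at 45.8 and 25.2 CPM in members and at 3.62 and 2.92 CPM in Drd1 nuclei. Htr2c, a serotonin receptor, was at 885 and 1131 CPM against 258 and 352 CPM. The serotonin receptor Htr2a was higher by 2.28 and 2.75 times, and the muscarinic receptor Chrm3 by 2.86 and 2.53 times. Grm8, an inhibitory metabotropic glutamate receptor, was the gene that was lower, with ratios of 0.51 and 0.659.

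Other genes with the largest ratios included Grik3, a kainate receptor subunit, at 5.60 and 3.92, and Ptprm, an adhesion phosphatase, at 5.20 and 2.72. Gucd1 was higher by 4.62 and 6.90 times, Necab1, a neuronal calcium-binding protein gene, by 3.79 and 4.14 times, Dach1, a transcription cofactor gene, by 3.11 and 3.15 times, and Adamtsl1 by 3.59 and 3.26 times. Among the lower genes, Foxp2 (chr6:14901349-15441977, plus strand), a forkhead factor of direct-pathway and other neurons, was at 137 and 126 CPM in members and 1346 and 941 CPM in Drd1 nuclei. Tac1, the substance P precursor, was at 15.9 and 6.40 CPM against 89.2 and 98.6 CPM. Gfra1, a receptor for the growth factor GDNF, had ratios of 0.175 and 0.235, and Cntnap3 0.113 and 0.258. The non-coding 6530403H02Rik, Adamts18, Sntg2, Pde11a, Ust and the homeobox gene Pbx3 completed the 10 lowest, with ratios from 0.108 to 0.347 in US- and from 0.135 to 0.381 in US+. Among 7 measured genes of the direct-pathway list, 4 were lower and none was higher past 1.5-fold in both libraries. Eya1, which is on that list, had ratios of 3.76 and 1.54, the second just under the fold once 0.5 CPM was added to both levels.

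**Figure D2:**
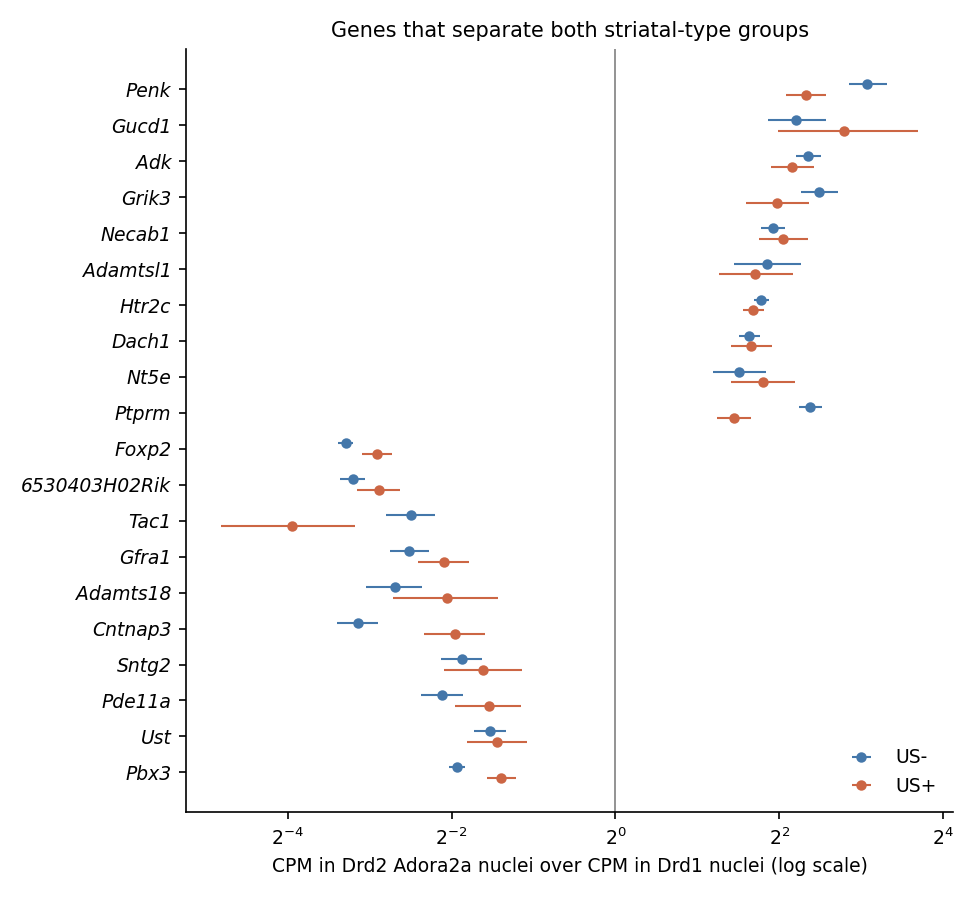
Ratio of the CPM in Drd2 Adora2a nuclei to the CPM in Drd1 nuclei (horizontal axis, log scale) for the 10 genes with the highest and the 10 with the lowest ratios in both libraries, at 500 or more UMIs. Blue points are US-, orange points are US+, and bars are 95% counting intervals. All 20 genes lie on the same side of 1 in both libraries.

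Against all other nuclei, the members' programme was that of SPNs. Past 1.5-fold in both libraries, 694 of 20102 genes (3.45%) were higher in members and 3216 (16%) were lower. Of the 24 shared SPN genes, 20 were higher and none was lower, with a median ratio of 2.62 in US- and 2.92 in US+. In the cascade from the olfactory-type G protein to cAMP, 19 of 38 genes were higher and 3 were lower. Both lists hold Gnal, Gng7, Adcy5, Pde1b, Pde7b, Pde10a, Ppp1r1b, Arpp21, Rgs9, Ptpn5 and Rasd2, so the counts overlap. Gnal, the G protein that carries the signal of the Adora2a receptor, was at 708 and 593 CPM in members and 273 and 180 CPM in other nuclei. Its partner Gng7 was 3.75 and 4.51 times higher, and Adcy5, the adenylyl cyclase of SPNs, 2.65 and 2.76 times. Pde7b and Pde10a, which break down cyclic nucleotides, were higher by 3.73 and 4.47 times and by 2.14 and 2.47 times. Ppp1r1b, the phosphatase inhibitor DARPP-32, was higher by 3.75 and 5.47 times. Gnas, Adcy2 and Adcy8, the G protein and cyclases common elsewhere in the brain, were lower, with Gnas at 187 and 299.7 CPM against 475 and 650 CPM.

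Channel and transmitter genes followed. Of 19 potassium channel genes, 7 were higher and 4 were lower, with Kcnj2, an inward rectifier, at 3.74 and 5.67 times and Kcnip2, a subunit of A-type channels, at 2.91 and 3.34 times the level of other nuclei. Gabrd, the delta subunit of extrasynaptic GABA-A receptors, was higher by 3.68 and 7.51 times. Of 18 peptide genes, Penk was higher and 10 were lower. Of 20 TRP and PIEZO channel genes, 8 were lower and none was higher. Trpm2, the channel at the centre of the study, was at 21.6 CPM in US- members and 22.2 CPM in US+ members, and at 25.0 and 22.9 CPM in other nuclei.

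Markers of other cells were mostly low in members. Their sums were 7.28 CPM in US- and 13.7 CPM in US+ for the 5 glutamatergic markers, against 30.9 and 38.9 CPM in other nuclei, and 53.2 and 92.6 CPM for the 11 preoptic markers, against 180 and 232 CPM. The 9 astrocyte markers summed to 447 and 359 CPM, above the 197 and 178 CPM of other nuclei, and Slc4a4, a bicarbonate transporter, alone gave 403 and 318 CPM of it. Slc1a2, the main astrocyte glutamate transporter, was at 22.1 and 22.2 CPM, below the 37.8 and 55.9 CPM of other nuclei. Cholinergic markers summed to 0.132 CPM in US- members and were at 0 in US+ members, as the rule requires of Chat and Slc5a7.

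Between the libraries, early genes were the group that stood furthest apart in members. Past 1.5-fold, 705 of 11703 genes (6.02%) were higher in US+ members and 1064 (9.09%) were lower, and the median ratio of all genes was 0.965. Of 19 rapid immediate-early genes measured in members, 16 were higher in US+ and 1 was lower. Their median ratio was 4.72. The list holds 36 genes that neurons transcribe within minutes of activation without new protein, of which 35 were matched in the files and 16 had too few UMIs. Summed, these 35 genes were at 348 CPM (335 to 361) in US- members and 1010.0 CPM (970 to 1052) in US+ members, a ratio of 2.90 (2.75 to 3.07). Homer1, a postsynaptic scaffold gene, gave 1594 of the 2630 summed UMIs in US- members and 709 of 2366 in US+ members. Without Homer1, a sum chosen after seeing the data, the levels were 137 CPM (129 to 146) and 707 CPM (674 to 742), a ratio of 5.16 (4.77 to 5.58).

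The transcription factor genes of the list were low in US- and plain in US+. Npas4 (chr19:4984355-4990316, minus strand), a factor that calcium entry induces in neurons, was at 7.80 CPM (59 UMIs) in US- members and 165 CPM (387 UMIs) in US+ members, a ratio of 21.2 (16.1 to 28.3). Fosb (chr7:19302696-19310051, minus strand), an AP-1 subunit that accumulates in striatal neurons, had 3 UMIs in US- members, all in 1 nucleus, and 93 in US+ members, or 0.397 and 39.7 CPM. The Fosb ratio was 100.04, with a counting interval from 33.2 to 494. Fos (chr12:85473890-85477273, plus strand), its best-known relative, was at 1.98 CPM in US- members and 20.1 CPM in US+ members. The Fos ratio was 10.1 (5.56 to 19.5), and it was 3.749 (0.502 to 27.99) in the 110 US- and 26 US+ members left without possible doublets. Possible doublets were nuclei with a UMI of Slc17a6 or Slc17a7, with more than 1 astrocyte or oligodendrocyte marker UMI, or of the greatest depth.

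Other members of these families showed smaller ratios. Fosl2 was at 3.04 and 16.2 CPM and Junb at 14.6 and 61.04 CPM, ratios of 5.33 and 4.20, whereas Jund was at 12.3 and 12.4 CPM and not past the fold. The orphan nuclear receptor gene Nr4a1 was at 9.26 CPM in US- members and 64.5 CPM in US+ members, and Nr4a3 at 3.84 and 33.7 CPM. Egr4 was at 4.23 and 25.6 CPM, Egr3 at 6.35 and 20.1 CPM and Egr1 at 11.5 and 30.3 CPM, so that their ratios ran from 2.63 to 6.05.

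Of the early genes that act outside transcription, Gadd45g, Arc and Btg2 were higher and Homer1 was not past 1.5-fold. Gadd45g (chr13:51846678-51848468, plus strand), a stress-response gene, was at 3.04 CPM in US- members and 66.2 CPM in US+ members, a ratio of 21.7 (13.98 to 35.3). Arc, which takes part in removing AMPA receptors from synapses, was at 4.63 and 38.8 CPM, and Btg2, an antiproliferative gene, at 2.51 and 23.1 CPM. Homer1, which has long constitutive and short induced forms, was at 211 and 303 CPM, a ratio of 1.44 that these counts cannot divide by form, and its ratio was 1.685 (1.53 to 1.86) above 8000 CPM of shared SPN genes and 1.206 to 1.908 over all alternatives. Klf10 was the gene that was lower, at 9.26 and 5.55 CPM, with an interval of the ratio from 0.304 to 1.09.

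**Figure D3:**
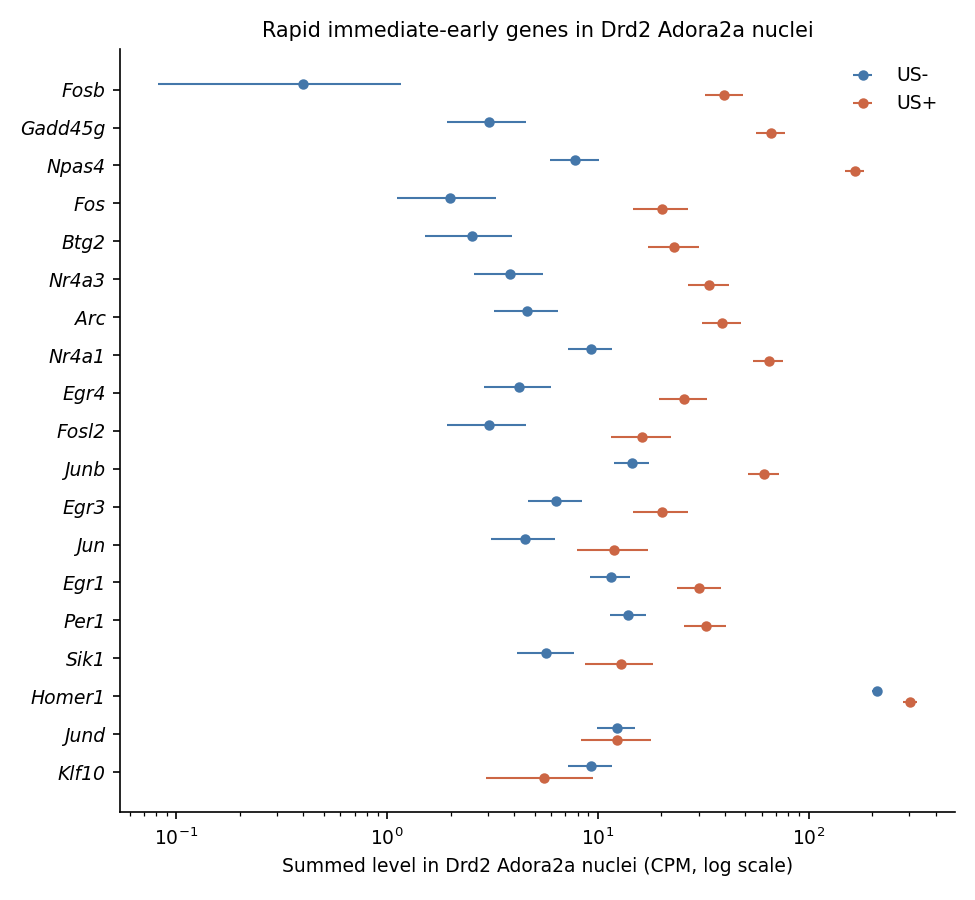
Summed level in Drd2 Adora2a nuclei (horizontal axis, CPM, log scale) of the 19 rapid immediate-early genes with at least 50 UMIs, ordered by the ratio of US+ to US-. Blue points are US-, orange points are US+, and bars are 95% counting intervals. Fosb, at 0.397 and 39.7 CPM, lies at the top and Klf10, at 9.26 and 5.55 CPM, at the bottom.

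The promoters of 5 of these genes are shown because the genes were higher together in US+ members and because CREB, which cAMP and calcium signals activate, binds a known element upstream of many early genes. Each is the reference sequence of RefSeq (GRCm38.p6) from 250 bases before to 50 bases after the annotated start, 5′ to 3′ on the gene's own strand. Capitals mark TGACG or its reverse complement CGTCA, the core bases of the cAMP response element.
Fosb, chr7:19309996-19310295, minus strand: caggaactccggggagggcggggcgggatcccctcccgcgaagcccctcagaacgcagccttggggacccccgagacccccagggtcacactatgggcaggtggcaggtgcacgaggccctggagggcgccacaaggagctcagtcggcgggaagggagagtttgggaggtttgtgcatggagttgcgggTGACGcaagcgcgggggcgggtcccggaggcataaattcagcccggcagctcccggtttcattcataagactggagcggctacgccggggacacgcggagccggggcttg
Npas4, chr19:4989922-4990221, minus strand: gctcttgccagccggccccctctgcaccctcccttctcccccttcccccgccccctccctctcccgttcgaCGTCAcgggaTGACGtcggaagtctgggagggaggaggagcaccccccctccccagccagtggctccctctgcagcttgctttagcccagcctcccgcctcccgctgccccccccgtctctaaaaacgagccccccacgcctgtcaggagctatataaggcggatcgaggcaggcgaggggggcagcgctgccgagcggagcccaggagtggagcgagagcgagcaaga
Nr4a1, chr15:101266596-101266895, plus strand: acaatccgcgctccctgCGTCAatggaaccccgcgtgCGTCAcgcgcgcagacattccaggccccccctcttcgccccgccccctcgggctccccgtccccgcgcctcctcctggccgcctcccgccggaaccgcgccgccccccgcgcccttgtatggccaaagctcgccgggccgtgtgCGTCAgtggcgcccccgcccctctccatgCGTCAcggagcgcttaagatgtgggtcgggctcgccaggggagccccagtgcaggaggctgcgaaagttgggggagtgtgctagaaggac
Fos, chr12:85473640-85473939, plus strand: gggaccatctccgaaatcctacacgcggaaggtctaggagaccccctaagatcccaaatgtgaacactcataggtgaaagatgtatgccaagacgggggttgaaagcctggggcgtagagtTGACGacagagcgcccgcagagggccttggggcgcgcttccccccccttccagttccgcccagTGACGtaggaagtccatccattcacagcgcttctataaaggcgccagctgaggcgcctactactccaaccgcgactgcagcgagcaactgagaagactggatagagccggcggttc
Btg2, chr1:134079106-134079405, minus strand: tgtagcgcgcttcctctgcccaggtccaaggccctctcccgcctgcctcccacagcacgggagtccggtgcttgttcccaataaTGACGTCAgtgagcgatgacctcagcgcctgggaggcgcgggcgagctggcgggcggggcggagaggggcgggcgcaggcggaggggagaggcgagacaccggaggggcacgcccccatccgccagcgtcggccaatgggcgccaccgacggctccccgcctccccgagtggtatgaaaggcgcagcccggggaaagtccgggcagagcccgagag

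Nr4a1 held 4 such matches, Npas4, Fos and Btg2 held 2 each and Fosb held 1. In Btg2 both matches lay in 1 full palindrome TGACGTCA. Of the 19 rapid early genes measured in members, 14 had a promoter in the table, and 10 of these (71.4%) held TGACG on either strand, against 23.0% of all 27025 genes there. Only Btg2 (7.14%) held the full element, against 2.03% of all genes. No promoter of the 14 held the CArG box of serum response factor in this window, and 1.81% of all genes did. A match of letters is a description of the sequence and not a measured binding site.

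Rapid early genes were also higher in Drd1 nuclei and, with a smaller ratio of the sum, in all other nuclei. In Drd1 nuclei 14 of 16 measured rapid early genes were higher past 1.5-fold and none was lower, and their sum went from 306 to 1355 CPM, a ratio of 4.42 (4.15 to 4.72). In all other nuclei 17 of 33 were higher and none was lower, and the sum went from 219 to 371 CPM, a ratio of 1.69 (1.66 to 1.72). Of all genes measured in Drd1 nuclei, 604 of 10494 were higher and 1046 lower past 1.5-fold. Of those measured in all other nuclei, 626 of 19995 were higher and 329 lower. Without Homer1 the ratio of the sum was 7.88 (7.19 to 8.64) in Drd1 nuclei and 2.12 (2.07 to 2.17) in all other nuclei. Npas4 had a ratio of 21.2 in members, 34.5 (23.6 to 52.2) in Drd1 nuclei and 5.07 (4.65 to 5.53) in all other nuclei. Fos had ratios of 10.1, 31.1 and 3.91 in the same order. All other nuclei are the nuclei that are no members and so hold the 433 and 131 Drd1 nuclei, which gave 344 of their 2874 US+ Npas4 UMIs. With the Drd1 nuclei taken out, the ratio in all other nuclei was 1.63 (1.604 to 1.664) for the sum, 4.51 (4.13 to 4.94) for Npas4 and 3.57 (3.11 to 4.11) for Fos. These groups come from the same pair of libraries, and whether these ratios differ across animals cannot be tested with 1 library a group.

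Within the members, the early genes followed the striatal programme. Members at or above 8000 CPM of shared SPN genes had the summed rapid early genes at 390.2 CPM (374 to 407) in the sham library and 1329 CPM (1270 to 1391) in the ultrasound library, a ratio of 3.41 (3.20 to 3.62). The members under 4000 CPM had them at 137 CPM (107 to 173) and 239 CPM (195 to 289), a ratio of 1.74 (1.28 to 2.39). Without Homer1 these ratios were 6.22 (5.70 to 6.79) and 2.19 (1.44 to 3.39). Npas4 had 311 of its 387 US+ UMIs in members above 8000 CPM, where its ratio was 25.8. The lower share of striatal-programme nuclei in US+ thus went with a smaller ratio over all members than over the members above 8000 CPM.

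Several early genes were also detected in the same nucleus, and the share expected if each were detected independently was not computed. To set aside depth, each nucleus was thinned to 2000 UMIs. At least 1 of the rapid early genes was then detected in 45.0% (41.3 to 48.8) of US- members and 76.8% (69.9 to 82.8) of US+ members. Homer1 by itself was detected in 30.8% of US- members and 42.9% of US+ members, and without it the shares with at least 1 early gene were 21.9% (18.9 to 25.2) and 70.1% (62.7 to 76.7). At least 3 different ones were detected in 2.14% (1.20 to 3.50) of US- members and 33.3% (26.4 to 40.8) of US+ members, or in 1.42% and 21.5% without Homer1. In Drd1 nuclei at least 3 were detected in 2.31% and 41.2%, and in all other nuclei in 1.51% and 6.44%. A single gene, Npas4, was detected in 0.855% of thinned US- members and 32.2% of thinned US+ members, and in 6.84% and 71.2% of the nuclei before thinning. In all other nuclei Npas4 was detected in 1.35% and 5.60% after thinning and in 5.11% and 14.1% before it. Fosb was detected in 0.142% and 10.7% of thinned members, and Fos in 0.712% and 4.52%.

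**Figure D4:**
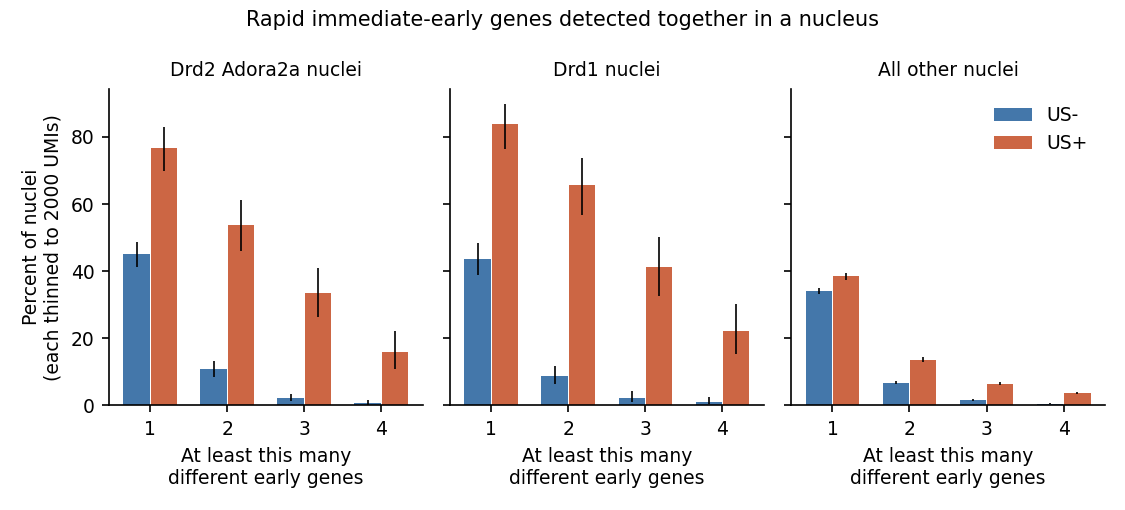
Percent of nuclei (vertical axis) with at least 1, 2, 3 or 4 different rapid immediate-early genes detected (horizontal axis) after thinning each nucleus to 2000 UMIs, for Drd2 Adora2a nuclei, Drd1 nuclei and all other nuclei. Blue bars are US-, orange bars are US+, and lines are exact 95% binomial intervals. At least 3 genes were detected in 2.14% of US- and 33.3% of US+ Drd2 Adora2a nuclei, against 1.51% and 6.44% of all other nuclei.

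Genes of the delayed activity response were higher in part. Of 17 measured, 8 were higher in US+ members and 2 were lower (6.02% and 9.09% of all genes), with a median ratio of 1.38. Rgs2 (chr1:143999338-144004161, minus strand), which speeds the shut-off of G protein signals, was at 16.1 CPM (122 UMIs) in US- members and 160 CPM (375 UMIs) in US+ members, a ratio of 9.92 (8.07 to 12.3). The phosphatase gene Dusp14 went from 10.7 to 38.0 CPM, and Tiparp, an ADP-ribosyltransferase gene, from 23.0 to 69.2 CPM. The granule protein Scg2 was at 71.8 and 157 CPM and the kinase Plk2 at 80.2 and 165 CPM. Bdnf, a neurotrophin, was at 7.54 and 3.41 CPM, and Spry2, a growth factor signalling inhibitor, at 20.5 and 12.8 CPM. Above 8000 CPM of shared SPN genes 9 of 16 measured genes were higher and none was lower, with Spry2 at 26.4 and 19.2 CPM, a ratio of 0.726. Of all 10379 genes measured in these members, 590 were higher and 1605 lower. Bdnf was too low to measure there, with 24 and 4 UMIs, and 33 of its 57 US- UMIs lay in the members below the level. The Drd1 nuclei had Rgs2 at 20.7 and 156 CPM and all other nuclei at 11.5 and 29.5 CPM.

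Penk was the only gene of the indirect-pathway list that was higher in US+. It was at 284 CPM in US- members and 475 CPM in US+ members, a ratio of 1.67 (1.55 to 1.80), and at 330 and 690 CPM in members above 8000 CPM of shared SPN genes, a ratio of 2.09 (1.93 to 2.26). Without the Rarb requirement the ratio was 1.367, under the fold. In Drd1 nuclei the ratio was 2.82 (2.26 to 3.52) and in all other nuclei 1.12 (1.07 to 1.17). Of the other 5 genes of that list, 4 were lower past 1.5-fold. Gpr52, a receptor that raises cAMP, was at 10.3 and 4.27 CPM, Ankk1 at 14.6 and 3.41 CPM, Gpr6 at 17.5 and 7.26 CPM and Sp9 at 20.5 and 11.95 CPM. Above 8000 CPM of shared SPN genes 3 were lower, with ratios of 0.451 for Gpr6, 0.508 for Gpr52 and 0.342 for Ankk1, and Sp9, at 22.9 and 16.3 CPM with a ratio of 0.713, was not past the fold. Among all 10379 genes measured there, 1605 were lower and 590 higher. In thinned US+ nuclei, Penk was at 736 CPM (603 to 890) in the 72 members with at least 1 of Fos, Fosb, Junb, Nr4a1, Arc and Egr1, and at 486 CPM (396 to 590) in the 105 with none. Of the SPN genes that are no early genes, Foxp1 was at 1542 CPM (1346 to 1758) in the former and 1086 CPM (949 to 1236) in the latter, and Pde10a at 1646 CPM (1443 to 1869) and 1667 CPM (1497 to 1851). Among the 120 US+ members above 8000 CPM of shared SPN genes, Penk was at 858 CPM (701 to 1041) in the 60 with an early gene and 758 CPM (611 to 931) in the 60 with none, and these intervals overlapped, whereas Pde10a was at 1817 CPM (1584 to 2075) and 2467 CPM (2194 to 2764). In US- the 55 members with at least 1 of these genes had Penk at 327 CPM and the 647 with none at 328 CPM.

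Other peptide genes were at low levels. Of 9 measured peptide genes, Penk among them, 5 were higher in US+ members and 1 was lower (6.02% and 9.09% of all genes). Nts, the neurotensin precursor, was at 21.4 and 50.4 CPM, Cartpt at 20.8 and 35.0 CPM and Sst, the somatostatin precursor of interneurons, at 13.0 and 28.2 CPM. Gal, the galanin precursor of many POA neurons, was at 4.89 CPM (37 UMIs) and 25.6 CPM (60 UMIs), a ratio of 5.23 (3.42 to 8.11). It had 39 of its 60 US+ UMIs in the members below 8000 CPM of shared SPN genes. Tac1 was lower, at 15.9 and 6.40 CPM.

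On the dopamine and adenosine side, Adora1 and Nt5e moved in opposite directions between the libraries. Adora1 (chr1:134199223-134235431, minus strand), the inhibitory A1 adenosine receptor, was at 13.9 CPM (105 UMIs) in US- members and 2.56 CPM (6 UMIs) in US+ members, a ratio of 0.184 (0.0662 to 0.415). It was also low in Drd1 nuclei of US+, with a ratio of 0.0953, and at 7.85 and 4.46 CPM in all other nuclei. Nt5e was at 56.6 and 138 CPM, a ratio of 2.44 (2.10 to 2.82) in members, 1.996 in Drd1 nuclei and 1.27 in all other nuclei. In the 110 US- and 26 US+ members left without possible doublets, as set for Fos above, the Nt5e ratio was 1.071 (0.546 to 1.97). Adk was at 396 and 368 CPM and Drd3 at 45.2 and 46.1 CPM.

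The cAMP cascade was split. Of its 38 genes, 8 were higher in US+ members past 1.5-fold and 7 were lower (6.02% and 9.09% of all genes). The median ratio was 0.949. Among the lower ones were Gng7, at 329 and 164 CPM with a ratio of 0.50 (0.448 to 0.556), Adcy5, at 359 and 223 CPM, and Ppp1r1b, at 39.8 and 19.6 CPM. The phosphodiesterase genes Pde1b and Pde2a were at 183 and 99.9 CPM and at 248 and 116 CPM. Rgs9, the striatal accelerator of G protein shut-off, was at 436 and 277 CPM, and Rasd2, a striatal small G protein, at 20.2 and 5.55 CPM. Higher were Rgs2, the protein kinase A subunit Prkar2a at 40.2 and 83.7 CPM, the phosphatase regulator Arpp19 at 72.6 and 132 CPM, and Gnas at 187 and 299.7 CPM. Pde10a and Pde7b, at 1884 and 1705 CPM and at 1021 and 1051 CPM, stayed within 1.5-fold.

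Because US+ held a smaller share of striatal-programme nuclei, the members above 8000 CPM of shared SPN genes were read apart. There Gng7 had a ratio of 0.557, Adcy5 of 0.661, Pde1b of 0.62, Pde2a of 0.534 and Rgs9 of 0.71, and 8 genes of the cascade were higher and 7 lower. Gng7, Adcy5, Pde1b and Rgs9, unlike Pde2a, belong to the 24 genes whose sum chose these members. Their ratios there are therefore no separate check on the mix of nuclei. Among all 10379 genes measured in these members, 590 were higher and 1605 lower past 1.5-fold, with a median ratio of 0.912. Gnas was under the fold there, at 126 and 175 CPM with a ratio of 1.39, and 455 of its 702 US+ UMIs lay in the members below the level. Of the 24 shared SPN genes, 9 were lower and none was higher over all members, and 8 were lower and 1 was higher above 8000 CPM, where the choice used their sum. Drd2 and Adora2a, which chose the members, had ratios of 0.653 and 0.636 over all members and of 0.674 and 0.784 above 8000 CPM.

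Receptor genes for other transmitters were more often higher. Of 23 measured, 8 were higher in US+ members and 2 were lower, where 6.02% of all genes were higher and 9.09% lower. Tacr1, a substance P receptor, was at 5.82 and 18.8 CPM, Htr2a at 44.05 and 91.4 CPM and Grm8 at 90.1 and 175 CPM. The cannabinoid receptor Cnr1 was at 14.02 and 26.9 CPM. The muscarinic receptor Chrm1, which excites SPNs, was at 28.2 and 9.39 CPM, and Oprd1 at 45.8 and 25.2 CPM. Among the TRP and PIEZO channel genes, Trpc5 was higher, at 45.8 and 97.8 CPM, and none of the 12 measured was lower. With so few genes, these counts are near the shares of all genes. Trpm2 had a ratio of 1.03 (0.738 to 1.41).

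Among genes with at least 500 UMIs in members, the highest ratios belonged to genes of several kinds. Mir670hg (chr2:94160636-94264918, minus strand), a long non-coding RNA, was at 64.7 CPM in US- members and 318 CPM in US+ members, a ratio of 4.92 (4.38 to 5.52), with 6.43 in Drd1 nuclei and 1.52 in all other nuclei. Sik2 (chr9:50892801-51009073, minus strand), a kinase that restrains CREB coactivators, was at 114 and 454 CPM, with ratios of 3.99, 3.88 and 1.27 in the same order. Rheb, the small G protein that activates mTOR, was at 35.5 and 108 CPM, and Ntrk2, the BDNF receptor gene, at 417 and 1089 CPM. The actin-linked genes Wipf3 and Vcl had ratios of 3.02 and 2.96, and Peli1, Lims1 and P4ha1 of 2.89, 2.80 and 2.69. In Drd1 nuclei Rheb, Ntrk2, Wipf3, Vcl, Peli1, Lims1 and P4ha1 had ratios from 2.31 to 4.67. Tafa1, a secreted neuronal protein gene, was at 36.2 and 116 CPM in members, a ratio of 3.19 against 1.48 in Drd1 nuclei. For Tafa1, 1 nucleus held 17.9% of the US- UMIs and 1 held 12.5% of the US+ UMIs, and the ratio above 8000 CPM of shared SPN genes was 4.96 (3.63 to 6.79).

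The lowest ratio was that of Elk3 (chr10:93247414-93311135, minus strand), a transcription factor gene of the ETS family, at 62.6 CPM in US- members and 19.2 CPM in US+ members, or 0.307 (0.221 to 0.417). Ramp1, a subunit of the CGRP receptor, was at 65.6 and 26.5 CPM, and Dlgap3, a postsynaptic scaffold of striatal synapses, at 119 and 48.7 CPM. The kinase gene Sgk3 was at 126 and 55.1 CPM, and Kcnip3, a channel subunit that also binds DNA, at 142 and 63.2 CPM. Fgf10, Map2k6, Smad3, Efnb2 and Pgbd5 completed the 10 lowest, with ratios from 0.448 to 0.463. All 10 of the lowest genes had ratios below 1 in Drd1 nuclei, from 0.310 to 0.742, and in all other nuclei.

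**Figure D5:**
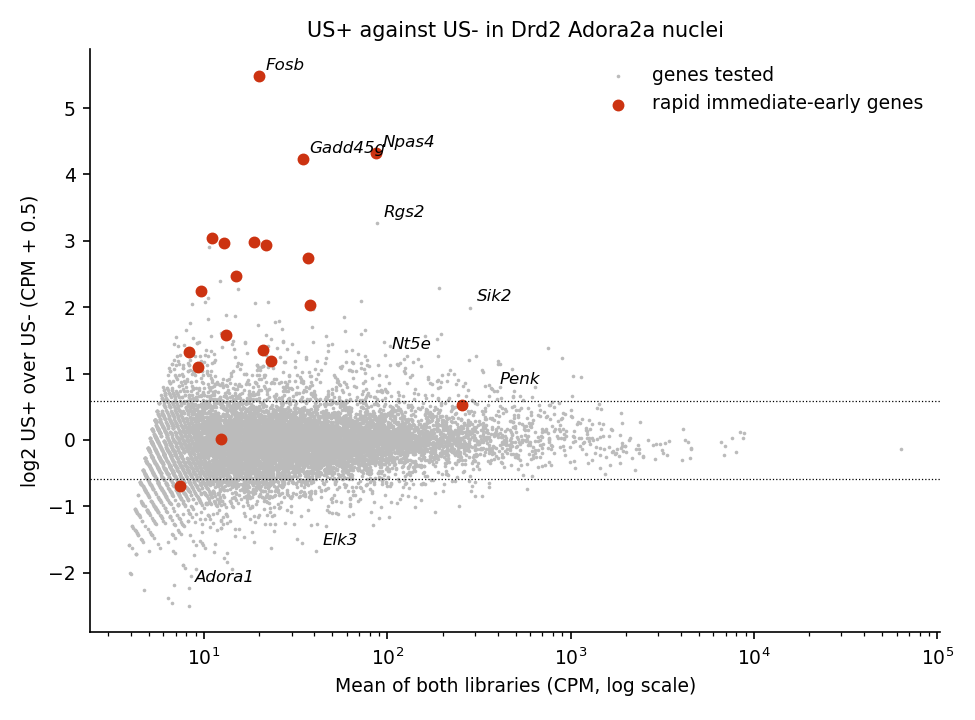
log2 ratio of US+ to US- in Drd2 Adora2a nuclei (vertical axis, CPM plus 0.5) against the mean CPM of both libraries (horizontal axis, log scale) for genes with at least 50 UMIs. These are the 11703 genes tested and the rule genes Drd2, Adora2a and Rarb, which chose the nuclei. Red points are rapid immediate-early genes, grey points are all genes, and dotted lines mark 1.5-fold. Of the 19 red points, 16 lie above the upper line and 1 below the lower one.

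Genes that respond to glucocorticoids or to temperature were measured because the state under study lowers body temperature. Of 9 measured in members, 3 were higher in US+ and 1 was lower (6.02% and 9.09% of all genes). Zbtb16, a zinc finger gene that glucocorticoids induce, was at 10.7 CPM in US- members and 32.9 CPM in US+ members, with ratios of 3.07 (2.22 to 4.24) in members, 5.81 in Drd1 nuclei and 3.99 in all other nuclei. Fkbp5, another such gene, was at 53.8 and 67.02 CPM, with ratios of 1.24, 1.99 and 1.85 in the same order. Sgk1, a kinase of the same kind, was at 199 and 106 CPM. The cold-inducible RNA-binding genes Cirbp and Rbm3 were at 22.2 and 37.99 CPM and at 34.5 and 31.2 CPM, ratios of 1.71 (1.31 to 2.22) and 0.903 (0.686 to 1.17).

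Genes that set excitability differed past 1.5-fold about as seldom as all genes, of which 6.02% were higher in US+ members and 9.09% lower. Of 19 potassium channel genes, Kcnj6, a G protein-gated channel subunit, was higher, at 25.1 and 57.6 CPM, and Kcnh4 was lower, at 21.2 and 12.4 CPM. Of 12 GABA-A receptor subunit genes, Gabrd was lower, at 43.9 and 17.9 CPM, with ratios of 0.408 (0.289 to 0.564) in members, 0.298 in Drd1 nuclei and 0.1999 in all other nuclei. The vesicular GABA transporter Slc32a1 was at 19.97 and 33.7 CPM, a ratio of 1.69 (1.27 to 2.23).

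Markers of other cells moved with the comparison of the libraries. In members, the oligodendrocyte markers summed to 53.3 and 120.0 CPM, a ratio of 2.25 (1.93 to 2.63), and 3 of the 4 measured were higher. The 11 preoptic markers summed to 53.2 and 92.6 CPM, and the 5 glutamatergic markers to 7.28 and 13.7 CPM. Above 8000 CPM of shared SPN genes the sums were 46.8 and 94.4 CPM for oligodendrocytes, 32.3 and 44.7 CPM for preoptic markers and 4.19 and 5.68 CPM for glutamatergic markers. Their part in the values above was not tested.

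Mitochondrially encoded genes differed from those of other nuclei. Of 11 measured in members, 8 were lower in US+ past 1.5-fold and none was higher, and their sum was 1032 CPM in US- and 685 CPM in US+, a ratio of 0.664 (0.629 to 0.701). In Drd1 nuclei the ratio of the sum was 0.971 (0.913 to 1.03) and in all other nuclei 1.26 (1.25 to 1.28). These sums depend on how nuclei are weighted. The mean mitochondrial share of a nucleus was 0.117% in US- and 0.0979% in US+ members, and 0.0972% and 0.118% in Drd1 nuclei. mt-Atp6 was detected in 38.2% of US- and 50.3% of US+ members, with a variance over mean of 4.03 and 4.02 after thinning. The counting intervals leave out this variation between nuclei. RNA of this kind in a nuclear preparation comes from outside the nucleus, and its part in other values was not tested.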

How the data were processed

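The data were single-nucleus RNA-sequencing of sorted POA neuron nuclei, 1 library of 4 pooled mice in each group (10x Genomics 3' chemistry). The deposited matrices hold raw UMI counts, for which the authors ran Cell Ranger 6.1.1 (version per the labels) on mm10 and brought the read depth to that of the sample with the lowest saturation. Of 32285 genes, 40 repeat a symbol and only the first entry of a symbol was tested. Nuclei were filtered as in the study, with a floor of 2000 UMIs added, which makes low-depth nuclei absent from every share. The upper bound on genes was the sole treatment of doublets in the main results, and no caller was run.

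UMIs were summed over nuclei and given as CPM, with exact Poisson intervals, exact conditional binomial intervals for ratios and Clopper-Pearson intervals for shares, all at 95%. A gene entered with at least 50 UMIs over the groups compared and was called past 1.5-fold of CPM plus 0.5, whereas printed ratios are of plain CPM. Against other nuclei a call had to hold in both libraries. No p-value was made, since a group is 1 library. Named genes are the 10 highest and 10 lowest of each comparison at 500 or more UMIs, and up to 12 genes of the early and cAMP lists and 4 of other lists at 100 or more. The genes named from lists with fewer UMIs, or beyond these numbers, were chosen after their values were seen. Members and gene lists were chosen with earlier results of these data known. Scripts used Python 3.11.15, numpy 2.4.6, scipy 1.17.1, pandas 2.3.3 and matplotlib 3.10.9, with R 4.3.3 and edgeR 4.0.16 for an alternative scaling. The intervals were tested on simulated independent counts, which leave out the variation between nuclei, so that test does not cover it. Gene positions are from GENCODE for GRCm38. Alternatives changed the floor, the receptor and Rarb limits, thinning, weighting, scaling, doublets, the pseudocount, the UMI minimum and the fold. Results for some genes of the lists are not reported here.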

Additional observations from a re-analysis of the deposited data

Results flagged for a closer look

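Rgs6, a regulator of G protein signals on chromosome 12 (82588292-83162056, plus strand), had a ratio of US+ to US- of 1.53 (1.31 to 1.77) in members and 0.657 (0.552 to 0.779) in Drd1 striatal-type nuclei, so that the direction differed between both striatal types. The difference was not tested, since each group is 1 library. Its level was 74.1 CPM in US- members and 113 CPM in US+ members, and 147 and 96.9 CPM in Drd1 nuclei. In members at or above 8000 CPM of shared SPN genes the ratio was 0.796 (0.590 to 1.06), and 1 nucleus held 14.3% of the Rgs6 UMIs of US+ members.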

How the results depend on the processing

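In all, 50 values were followed over 17 alternatives, and some alternatives applied to part of the values only. Reversal was checked only for ratios past 1.5-fold, and none of these reversed. Rgs6, with a ratio of 1.53 over all members and 0.796 above 8000 CPM of shared SPN genes, was not among the values followed. Of 478 single-gene values under alternatives, 339 moved by less than their counting interval and 139 by more. Among single genes, the call at 1.5-fold ended for Nt5e (1.071) and Egr1 (1.499) without possible doublets, for Penk without Rarb (1.367), for Pde1b with a receptor sum of 4 (0.6905), for Ppp1r1b with members chosen after thinning (0.7456), and for Adcy5 and Rgs9 under 5 alternatives each, up to 0.8232 and 0.7659. Members were 7.238% and 2.246% of the nuclei of US- and US+ with at least 5000 UMIs, 4.266% and 1.019% with both receptors required, 3.478% and 0.7768% with a receptor sum of at least 4, 6.902% and 2.431% without the Rarb requirement, and 1.712% and 0.3935% when chosen after thinning. The summed rapid early genes, 2.90 times higher in US+ members, were 3.355 times higher with both receptors, 3.253 with a receptor sum of 4, 2.403 without Rarb, 3.562 after thinning, 4.195 with members chosen after thinning, 3.103 with nuclei weighted equally and, chosen after seeing the data, 5.161 without Homer1. The 16 rapid genes past 1.5-fold became 10 with a receptor sum of 4, 2 after thinning, 4 with members chosen after thinning and 3 at a minimum of 200 UMIs, since fewer genes reached the UMI minimum.

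The 705 higher and 1064 lower genes of US+ members became 453 and 487 with a pseudocount of 5 CPM, 1152 and 1671 at a minimum of 20 UMIs, 305 and 347 at 200 UMIs and 210 and 244 at 2-fold, and the higher genes became 427 after thinning. Against Drd1 nuclei, the 213 higher and 214 lower genes became 92 and 115, then 97 and 110 at 200 UMIs and 56 and 66 at 2-fold. The higher genes became 328 at 20 UMIs and 136 after thinning, and the lower genes 341 with both receptors and 370 with a receptor sum of 4. The Penk ratio of members to Drd1 nuclei in US+ was 6.122 with both receptors and 40.06 with members chosen after thinning.

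Possible doublets were nuclei with a UMI of Slc17a6 or Slc17a7, with more than 1 astrocyte or oligodendrocyte marker UMI, or among the deepest of their group. Leaving them out left 110 US- and 26 US+ members (0.9964% and 0.2623%). Slc4a4 is among these markers and stood at 403 and 318 CPM in members. This alternative left 389 higher, 480 lower and 0 rapid genes past the fold, as few reached the UMI minimum, and 120 and 129 genes against Drd1 nuclei. With Slc4a4 not used and the depth limit kept, an alternative chosen after seeing the data, members were 4.203% and 1.049%, the early sum 3.314 and the Penk ratio 6.836. With shared SPN genes at or above 8000 CPM, also chosen after seeing the data, they were 5.217% and 1.211%, 3.407 and 6.682, and 1605 genes were lower. Floors of 1000 UMIs and scaling by edgeR left each of these values within its counting interval or within 1.5 times its count. No paired analysis was possible because each group is 1 library, and no library could be left out.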
